A study of Mus musculus with 8 samples.

Results

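The nuclei described here were the progenitor-like nuclei of the medial ganglionic eminence (MGE), the ventral forebrain structure that gives rise to many cortical interneurons. They were chosen by the accessibility of 11 genes in a single-nucleus ATAC-seq dataset, an assay that counts transposase cuts in open chromatin nucleus by nucleus. For each MGE nucleus with at least 5000 counts in peaks, A was the sum of counts in peaks over the gene body or the 2 kb upstream of Hes1, Hes5, Sox2, Notch1, Nes and Vim, and B was the same sum for Dlx5, Dlx6, Gad1, Gad2 and Slc32a1. Nuclei were ranked by (A + 1)/(A + B + 2), and the highest 30% of each sample were taken as members. This gave 2820 members of 9399 MGE nuclei that reached 5000 counts and of 10310 MGE nuclei in all, with 1826 of 6085 in replicate 1 and 994 of 3314 in replicate 2. The same cut gave 3147 of 10490 nuclei in the lateral (LGE) and 2440 of 8135 in the caudal ganglionic eminence (CGE). The whole series held 39253 nuclei in 8 samples.

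The 6 samples used here were 2 each of MGE, LGE and CGE, all brain tissue of wild-type (WT) mice at E12.5 with no further allele or treatment in the labels. Cortex samples were not used here. The labels do not say whether replicates came from separate litters or pools of embryos, so p-values measure only the spread between these samples. The peak counts of the 6 samples summed to between 77387940 and 138789944, and the members held 38414782 and 29190463 counts in MGE replicates 1 and 2. The members' median was 17742 and 23348 counts per nucleus, against 15814 and 15895.5 in the other MGE nuclei. Odd counts made up 9.54% and 5.85% of the matrix entries in MGE replicates 1 and 2. This property followed the replicate number in all 3 eminences, so that each replicate number holds 1 sample per eminence and gives no replicated value by itself. Between 15 and 56 barcodes of an MGE library also occurred in another library.

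In the ventricular zone (VZ) of the ganglionic eminences (GEs), radial glia divide at the ventricle, keep Notch signaling active through Hes repressors, and contain the intermediate filaments nestin and vimentin. Their daughters enter the subventricular zone, switch on Dlx homeobox genes, and become GABAergic neurons that make GABA with Gad1 and Gad2 and load it into vesicles with Slc32a1. In the MGE the homeodomain factor Nkx2-1 is made in dividing progenitors and directs the fate of their daughters, and the LIM-homeodomain factor Lhx6 follows in cells that leave the cycle.

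Stretches from 5 distal regions discussed below show DNA at which MGE members differed from LGE and CGE members, each the central 200 bases of a region, on the + strand of GRCm38.p6 and without overlap of an annotated exon. The first pair lay in regions higher in MGE members than in both other eminences and is shown with capitals on CAAGTG, the core that NKX2 factors bind, or on its reverse complement. They came from a region 257 kb from the start of Eef2kmt and a region 120 kb from that of Galc.
chr16:5513333-5513532: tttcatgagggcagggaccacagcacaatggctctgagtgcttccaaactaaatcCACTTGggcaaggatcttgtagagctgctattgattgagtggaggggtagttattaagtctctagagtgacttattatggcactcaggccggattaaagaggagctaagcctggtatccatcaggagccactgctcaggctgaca
chr12:98123657-98123856: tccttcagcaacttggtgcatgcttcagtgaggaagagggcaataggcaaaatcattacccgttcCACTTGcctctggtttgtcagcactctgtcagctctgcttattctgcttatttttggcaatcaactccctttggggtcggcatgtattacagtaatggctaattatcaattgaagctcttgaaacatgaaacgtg
The next pair, 78.1 kb from the start of Zic4 and 113 kb from that of Cps1, was also higher in MGE members and has capitals on ACAANG, a core of SOX factors, on either strand.
chr9:91456681-91456880: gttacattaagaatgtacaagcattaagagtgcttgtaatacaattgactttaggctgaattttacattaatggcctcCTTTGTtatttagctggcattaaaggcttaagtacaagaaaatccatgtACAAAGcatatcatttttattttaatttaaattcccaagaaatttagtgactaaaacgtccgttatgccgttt
chr1:67235760-67235959: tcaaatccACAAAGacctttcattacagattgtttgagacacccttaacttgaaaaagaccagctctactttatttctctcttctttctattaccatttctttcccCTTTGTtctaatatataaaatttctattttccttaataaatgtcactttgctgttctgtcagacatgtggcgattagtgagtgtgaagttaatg
The last, 146 kb from the start of Cd83, was lower in MGE members and has capitals on TAATTA, the core shared by DLX and LHX homeodomain factors, whose reverse complement is the same.
chr13:43930514-43930713: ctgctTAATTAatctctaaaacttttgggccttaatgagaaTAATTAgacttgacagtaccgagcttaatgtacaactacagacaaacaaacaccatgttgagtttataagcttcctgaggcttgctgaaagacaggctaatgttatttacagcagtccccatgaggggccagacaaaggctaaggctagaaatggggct
These 5 were taken from regions of which each sample's peaks covered at least 50%, a condition set after values had been seen, and a match of letters is a description and not a bound site.

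The ratio placed its own genes as it had to, and these levels are given as a description without a test. In CPM, the count scaled to a common total over all genes, members of MGE replicates 1 and 2 had 823 and 541 at Notch1, the receptor, against 419 and 234 in the other MGE nuclei. Hes5, a repressor that Notch activates, stood at 457 and 368 CPM against 240 and 181. Slc32a1, the vesicular GABA transporter, stood at 35.5 and 37.6 CPM against 185 and 168. The first 6 genes were thus higher and the GABAergic genes lower in both samples. The median nucleus among members had an A of 44 counts and a B of 4 in each MGE sample, while the others had an A of 20 and 10 and a B of 18 in both. The lowest ratio inside the cut was 0.833 in replicate 1 and 0.733 in replicate 2, and the highest outside it was equal at 3 digits, with means of 0.837 and 0.748 for the last 100 nuclei inside and of 0.830 and 0.721 for the first 100 outside. The cut therefore ran through a continuous range and did not separate a discrete class, with 1013 and 348 nuclei within 0.05 of it. Thinning each nucleus to 5000 counts before ranking kept 83.0% and 83.9% of the members.

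The summed level of the progenitor markers was 3869 and 2976 CPM in members of MGE replicates 1 and 2 against 2385 and 1612 in the other MGE nuclei, but this list includes the genes of the ratio, so its sum is no check of the label. The label was therefore compared with markers outside the ratio. These lists come in part from earlier work on the same data and are not an independent check. Of 20 further radial glia genes, 20 were higher in members than in the other nuclei of both MGE samples, with a median log2 ratio of 0.52 and a range of 0.20 to 1.32. Of 15 neuron genes, 15 were lower in both, with a median of -0.39. Among all 15408 genes of at least 5 CPM, 32.2% were higher in both samples and 48.5% lower. Glutamatergic markers summed to 287 and 317 CPM in members and 362 and 325 in the others, and endothelial markers to 221 and 228 against 256 and 224. Microglial, mural and erythroid sums were 167 and 159, 356 and 308, and 66.7 and 52.3 CPM in members, against 162 and 151, 345 and 283, and 57.4 and 42.3 in the others. Each of these sums was thus higher in members of both samples. Aif1, Hbb-bs, Hba-a1 and Alas2 were at 0 in the MGE members, and Aif1, Hbb-bs and Hba-a1 also in LGE and CGE members. A 0 can mean that no peak of a sample lay over the gene. By a comparison of marker sums, 8 of 1826 and 17 of 994 members counted as non-neural. The neural sum in this comparison held the 11 genes of the ratio, so the count is no check of the label either. Radial glia markers were thus higher and neuron markers lower in the members, in the direction that the label states, while neuron genes remained measurable.

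Nkx2-1, the gene that defines the MGE, was more open in the members than in the progenitor-like nuclei of the other eminences. On chromosome 12 (56531958 to 56536908, minus strand, GRCm38), its level in members was 590 and 413 CPM in MGE replicates 1 and 2, 34.1 and 32.7 in LGE, and 32.4 and 27.7 in CGE. Both MGE samples lay far above the other 4, with no overlap. The log2 difference was 3.94 from LGE (SE 0.212, adjusted p = 0.00126) and 4.08 from CGE (SE 0.214, adjusted p = 0.00137) in edgeR's quasi-likelihood test, and both remained called with any of the 6 samples left out. The sum over a gene uses each sample's own peaks, which covered 24.3 and 21.5 kb around Nkx2-1 in MGE but 5.5 to 6.34 kb elsewhere. Per covered kb the level was still 24.3 and 19.2 CPM in MGE members against 4.37 to 6.21 in the other 4 samples. With covered length as an offset the difference was 1.98 from LGE and 2.20 from CGE and no longer passed the test, while sums over merged peak regions that all 6 samples shared gave 2.73 and 2.70 and passed.

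The share of nuclei with a count at Nkx2-1 gives how often the gene was detected among the members. It depends on depth and is not the share of nuclei in which the gene was open. After each nucleus was thinned to 5000 counts, 81.4% of members in MGE replicate 1 (exact Clopper-Pearson 95% interval 79.6% to 83.2%) and 72.0% in replicate 2 had at least 1 count. The shares were 76.4% and 58.8% in the other MGE nuclei, 9.76% and 9.89% in LGE members and 9.26% and 10.4% in CGE members. Without thinning they were 90.9% and 88.8% in MGE members. The intervals cover counting error only. A share grows with the length of peaks counted, which was 24.3 and 21.5 kb in MGE but 5.5 to 6.34 kb in LGE and CGE, so shares in different eminences or genes are not over like stretches. Tek, an endothelial receptor, had a count in 4.65% and 6.34% of MGE members and in 4.60% and 4.14% of the other nuclei after the same thinning, over 0.904 and 2.45 kb of peaks. Counts at Lhx6 were found in 31.1% and 33.8% of members, in 62.9% and 61.4% of the other MGE nuclei, and in 12% and 15.4% of LGE members. Within the MGE, where members and others were counted over the same peaks, the share was thus lower in members. In sums over nuclei, more nuclei with an open site and more counts per nucleus cannot be told apart.

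**Figure D1:**
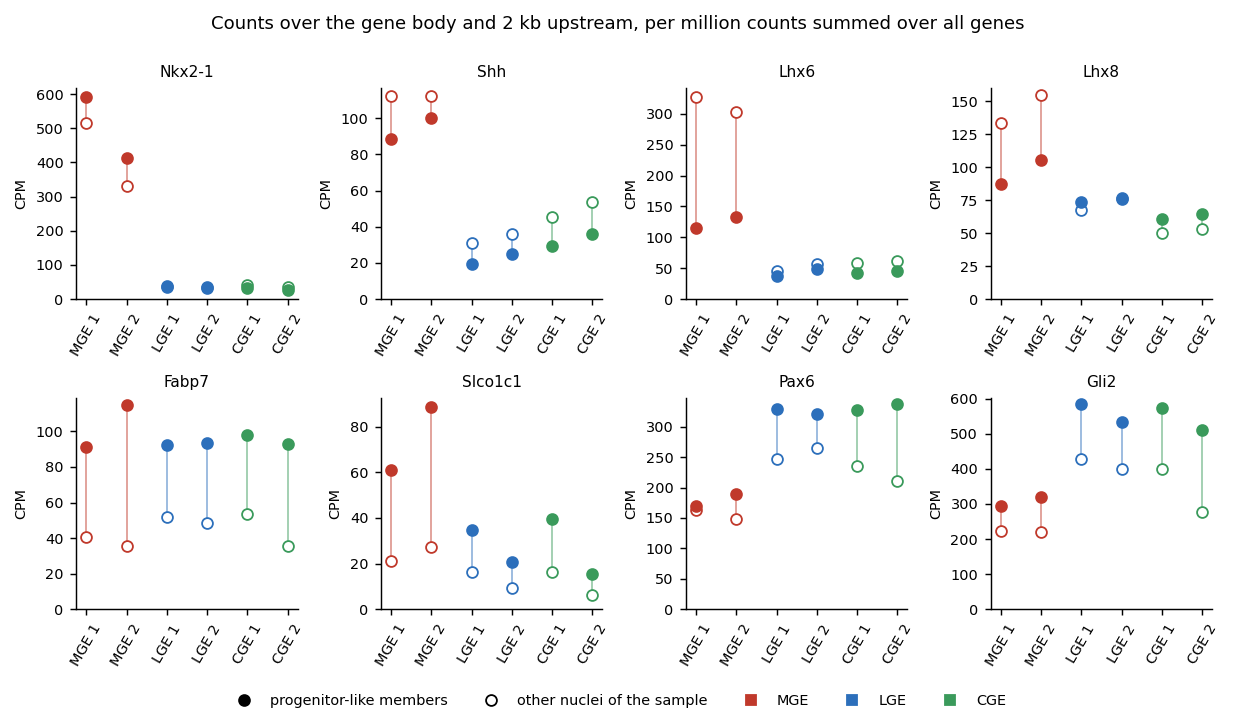
Level of 8 genes in CPM of the counts summed over all genes (vertical axis, from 0) in the 6 samples (horizontal axis), with filled points for members and open points for the other nuclei of each sample. Nkx2-1, Shh and Lhx6 are higher in members of both MGE samples than in those of LGE and CGE (with covered length as an offset Lhx6 turned to -0.46 from LGE). Lhx6 is higher still in the other MGE nuclei, at 328 and 303 CPM, and Shh is also higher there than in the members.

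Of the genes in the MGE list, Nkx2-1, Shh and Lhx6 differed between MGE members and both LGE and CGE members. The members compared were not alike in the GABAergic genes of the ratio. These summed to 366 and 487 CPM in MGE members, 127 and 221 in LGE members and 260 and 272 in CGE members. Each sum is over the sample's own peaks. Members without a count in B made up 23.5% and 17.3% in MGE and 30.4% to 42.3% in LGE and CGE. The part of this in the comparisons was not tested. Of 17008 genes tested, 94 passed against LGE (0.553%), with 62 higher and 32 lower (0.188%) in MGE members, and 41 passed against CGE (0.241%), with 24 higher and 17 lower (0.1%). DESeq2 called 666 against LGE, 389 higher and 277 lower, and 643 against CGE, 269 higher and 374 lower. Summed over merged regions, 93 were higher and 95 lower than in LGE, and 39 higher and 62 lower than in CGE, so the split between directions depends on the setting. With the replicate number as a further term of the fit, 27 passed against LGE and 20 against CGE. Genes named below that were then not called are listed in the closing section. Both comparisons use the same MGE samples and are not independent of each other. Of the 11 genes of the MGE list found in the annotation, 3 were higher than in LGE, where 0.365% of all genes were, and 3 were higher than in CGE, where 0.141% were. Their median log2 difference over the list was 0.57 and 0.68, beside 0.00 over all genes in each comparison. The 12th gene of the list, Cxcr7, was not found under that name. Leaving out MGE replicate 1 or 2 gave 15 or 254 calls against LGE, and leaving out LGE replicate 1 or 2 gave 32 or 52. Those against CGE were 18 and 28 without CGE replicates 1 and 2, 19 without MGE replicate 1, 68 and 64 without LGE replicates 1 and 2, and 242 without MGE replicate 2, of which 98 were higher and 144 lower. Covered length as an offset left 2 and 0 calls and moved the median of all genes by -0.16 against LGE and by 0.12 against CGE.

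Shh, the secreted ligand of the Hedgehog pathway, stood at 88.4 and 100 CPM in MGE members, 19.5 and 24.9 in LGE members and 29.6 and 36.0 in CGE members. The MGE values exceeded all others without overlap. The difference was 2.11 from LGE (SE 0.195, adjusted p = 0.0136) and 1.53 from CGE (SE 0.191, adjusted p = 0.0327). The adjusted p rose to 0.0548 against LGE without MGE replicate 1, and up to 0.148 against CGE without MGE replicate 1, CGE replicate 1 or CGE replicate 2. Peaks covered 10.1 and 9.95 kb around Shh in MGE and 5.18 to 8.33 kb in the other samples, and with covered length as an offset the differences were 1.34 and 1.13 and did not pass (adjusted p = 0.146 and 0.238). Over merged regions they were 2.13 and 1.52 and passed (adjusted p = 0.00217 and 0.00828). Shh was higher still in the other MGE nuclei, at 112 CPM in both replicates. Its positive members-minus-others value against LGE and CGE, given below, therefore means a smaller deficit of members in MGE and not a higher level than in the other nuclei.

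Lhx6, on chromosome 2 (36081953 to 36105408, minus strand), had 115 and 133 CPM in MGE members, 37.5 and 48.2 in LGE members and 42.5 and 44.9 in CGE members. The groups did not overlap, and the difference was 1.56 from LGE (SE 0.179, adjusted p = 0.0192) and 1.52 from CGE (adjusted p = 0.0276), but with covered length as an offset it turned to -0.46 from LGE and fell to 0.16 from CGE. Peaks covered 30.5 and 30.4 kb around the gene in MGE and 5.94 to 13.8 kb in the other samples. The calls were also lost without MGE replicate 1 or LGE replicate 1 against LGE (adjusted p up to 0.0801) and without MGE replicate 1 or either CGE sample against CGE (up to 0.138). Morn5, the neighbour that shares peaks with Lhx6, was likewise called, at 2.30 and 2.28, and likewise turned with covered length, to -1.56 and -0.95.

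Downstream of the ligand, 1 Hedgehog gene was lower in MGE members. Gli2, a transcription factor of the pathway, stood at 294 and 321 CPM in MGE members, 584 and 535 in LGE and 574 and 512 in CGE. It was lower than in LGE by a log2 difference of -0.83 (adjusted p = 0.0476), while -0.81 from CGE did not pass (adjusted p = 0.067). The LGE call was lost in 5 of the 6 fits with a sample left out (adjusted p up to 0.258), and with covered length as an offset the difference was -0.25 and -0.03. Gli3, the main repressor of the pathway, was at 382 and 500 CPM in MGE members and 678 to 744 in the other 4 samples, and Boc, a Hedgehog co-receptor, at 185 and 193 against 286 to 335. Neither passed against LGE or CGE. Of the 12 Hedgehog genes, 1 was higher (0.365% of all genes) and 1 lower (0.188%) than in LGE, and 1 was higher than in CGE (0.141%).

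Pax6, a radial glia factor of the pallium and dorsal LGE, was the 1 of 20 genes of the radial glia list that passed, where 0.188% of all genes were lower than in LGE and 0.1% lower than in CGE. It stood at 169 and 190 CPM in MGE members, 329 and 320 in LGE and 327 and 338 in CGE. The difference was -0.83 from LGE (SE 0.124, adjusted p = 0.0494), a call kept in 1 of 6 fits with a sample left out (adjusted p up to 0.287), and -0.88 from CGE (adjusted p = 0.0531). The other 19 radial glia genes did not pass in either comparison, and the median of the list was -0.07 and -0.03. None of the Notch, basal progenitor, neuron, cell cycle, glial or FGF and Wnt genes passed in either comparison, nor did any of the CGE list.

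Genes best known from other tissues were among the calls in both directions. Hsd17b3, a steroid dehydrogenase, had 90.6 and 114 CPM in MGE members, 29.9 and 38.6 in LGE members and 32.5 and 31.9 in CGE members. It differed by 1.61 from LGE (adjusted p = 0.0219) and 1.68 from CGE (adjusted p = 0.024), and the calls were lost without MGE replicate 1, LGE replicate 1 or either CGE sample (adjusted p up to 0.110). Fgr, a Src-family kinase, had 33.0 and 26.8 CPM against 4.86 to 6.80 in the other 4 samples, with differences of 2.55 (adjusted p = 0.0136) and 2.26 (adjusted p = 0.0148). Its calls were lost without MGE replicate 1 against LGE (adjusted p = 0.0559) and without MGE replicate 1 or CGE replicate 1 against CGE (up to 0.0812). Among called genes with a count in members of all 6 samples and no overlap of groups, the lowest was Cdh17, a cadherin of gut and liver. It had 5.41 and 6.0 CPM in MGE members, 72.2 and 62.6 in LGE and 58.2 and 47.1 in CGE. Its difference was -3.53 from LGE (SE 0.176, adjusted p = 0.00126) and -3.19 from CGE (adjusted p = 0.00137), was -3.42 and -3.14 over merged regions, and passed with every sample left out.

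Several of the other calls were much smaller when summed over merged regions shared by all samples. Stap2 had 113 and 92.2 CPM in MGE members and 3.24 and 5.17 in LGE members, a difference of 4.66 that was 0.03 over merged regions. Plppr3, a phospholipid phosphatase-related protein that shares peaks with Prtn3 and Ptbp1, differed by 2.10 and 2.31 from LGE and CGE but by 0.23 and 0.37 over merged regions. Ccdc188 went from 3.08 and 3.51 to 0.87 and 0.61, and Wnt2, a Wnt ligand, from -1.89 and -2.11 to -0.16 and -0.48. For 4930415O20Rik the difference from CGE was -2.95 and turned to 0.081. Of the 94 calls against LGE 68 were also called over merged regions, and 30 of the 41 against CGE. The remaining named genes were low: Abca8a and 4930432M17Rik were higher than in LGE, Npc1l1 higher than in CGE, Gnat2 and Myh15 lower than in both, Cntnap3, Oxgr1 and Ankk1 lower than in LGE, and Nckap1l lower than in CGE. With a sample left out, Abca8a passed in 2 of 6 fits, 4930432M17Rik in 4, Npc1l1 in 2, Cntnap3, Oxgr1 and Nckap1l in 3 and Ankk1 in 1. Gnat2 passed in 5 against LGE and 3 against CGE, and Myh15 in 5 against each. Abca8a, a lipid transporter, had 9.89 and 13.3 CPM in MGE members against 0.383 to 1.64 in the other 4 samples. Ptprc, the leukocyte antigen CD45, was lower than in LGE by -1.37 and than in CGE by -1.59, at 9.72 and 11.8 CPM against 23.9 to 35.5, and over merged regions these were -0.87 and -0.94 and did not pass. With a sample left out Ptprc passed in 1 of 6 fits against LGE and 3 against CGE.

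Within the MGE, Slco1c1, Mlc1 and Mpeg1 had the highest levels in members relative to the other nuclei by the smaller of the 2 samples' log2 ratios, and Asb18, Gast and Myo3a the lowest. These values come from the contrast that chose the members and carry no test. Of 12793 genes of at least 20 CPM outside the ratio, 15 (0.117%) had a log2 ratio of at least 1 in both MGE samples and 18 (0.141%) of -1 or less. Slco1c1, a thyroid hormone transporter, had 61.1 and 88.4 CPM in members against 21.2 and 27.2 in the others of MGE replicates 1 and 2. Mlc1, a membrane protein of astrocytes, had 73.6 and 58.5 CPM against 26.9 and 16.3, and Vcam1, an adhesion molecule, 62.2 and 82.3 against 25.4 and 32.9. Fabp7, the brain lipid-binding protein of radial glia, had 91.5 and 115 CPM against 40.7 and 35.8. In each of these genes both samples showed the higher level in members, a direction that the ranking itself fixed. Mpeg1, Pkd1l1, Fam198a, Trp63, Pdzph1, Hsd17b3, Cubn and Gm11627 completed the 12 highest, with Mpeg1, a perforin-like gene of macrophages, at 34.2 and 47.7 against 11.4 and 12.1 CPM.

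On the low side Lhx6 had 115 and 133 CPM in members against 328 and 303 in the other MGE nuclei. Ina, the neuronal intermediate filament internexin, had 23.1 and 29.8 CPM against 76.6 and 80.0, and Lrfn2, a synaptic adhesion protein, 95.7 and 110 against 219 and 255. Asb18 had the lowest ratio, -1.60 and -1.93, at 24.8 and 25.8 CPM against 85.3 and 113. Both samples showed the lower level in members at each of these genes, which the ranking again fixed. Gast, Myo3a, 1700069L16Rik, Galnt14, Ecel1, Tmem130, March11 and Cps1 completed the 12 lowest. Myo3a, an unconventional myosin, had 26.1 CPM in replicate 1 and 87.5 in replicate 2, so its level differed more between the replicates than between members and others of a replicate.

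**Figure D2:**
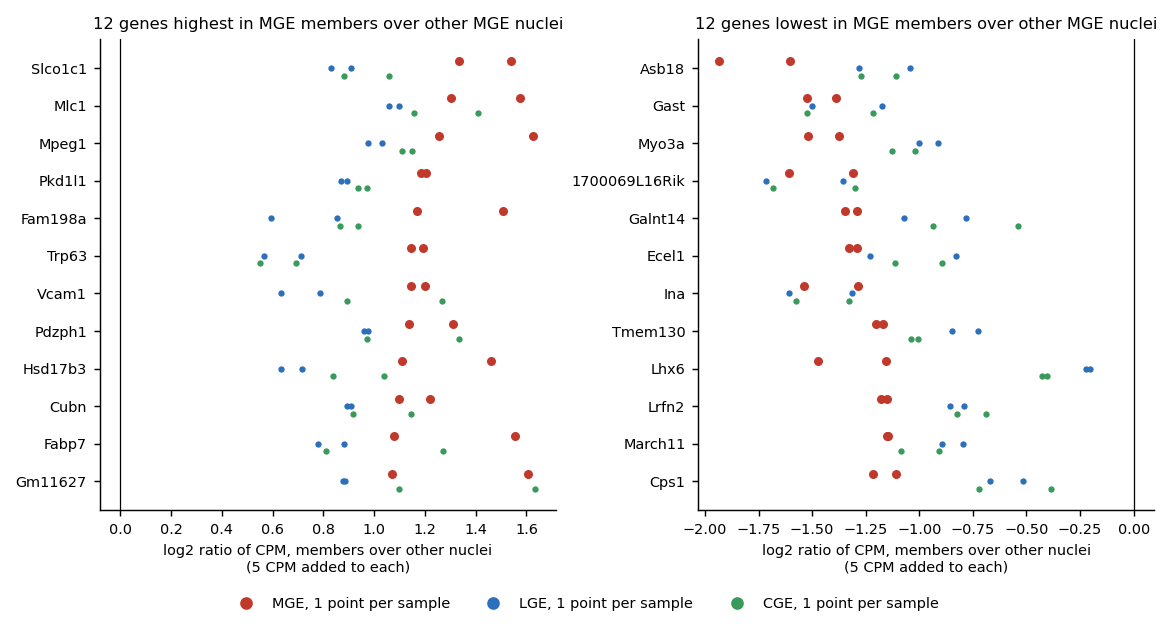
Log2 ratio of the level in members over that in the other nuclei of the same sample, with 5 CPM added to each (horizontal axis), for the 12 highest and 12 lowest genes of the MGE (vertical axis), 1 point per sample. Asb18 is lowest, at -1.60 and -1.93 in the MGE samples, and Slco1c1 is among the highest, at 1.34 and 1.54.

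The listed gene groups differed between members and other MGE nuclei to different degrees, again as a description. Among all genes of at least 5 CPM 32.2% were higher and 48.5% lower in both samples. Of 15 Notch genes 10 were higher and 3 lower in members of both MGE samples, with a median log2 ratio of 0.29, and Jag1, a Notch ligand, had 238 and 267 CPM against 132 and 128. Of 12 Hedgehog genes 8 were higher and 3 lower, with a median of 0.43, of 13 glial genes 11 and 1 with 0.30, and of 15 FGF and Wnt genes 11 and 2 with 0.29. Of 12 cell cycle genes 8 were higher and 1 lower, with a median of 0.18, and of 15 basal progenitor genes 7 and 6 with 0.05. Of the 10 MGE genes with enough counts 4 were higher and 6 lower, with a median of -0.33. Of 13 LGE genes 10 were higher and 1 lower, and of 7 CGE genes 3 and 4. The median over all genes was -0.04.

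How the difference between members and other nuclei in MGE compared with the same difference in LGE and CGE was tested with sample as a term. Members and others of a sample were counted over the same peaks, but the stretch those peaks cover differs between samples. At Gsx2 it was 3.49 kb in LGE replicate 1 and 10.2 kb in LGE replicate 2. Of 17336 genes 907 passed (5.23%), with 477 higher in MGE (2.75%) and 430 lower (2.48%). The genes of the ratio, and genes that share their peaks, stayed in this fit and may be among the calls. The rule cut all 3 eminences, and the sharpness of the cut bears on this comparison. The log2 ratio of A between members and others was 0.86 and 1.06 in MGE, 0.82 and 0.80 in LGE, and 0.88 and 1.11 in CGE, and that of B was -2.25 and -1.81, -2.29 and -2.56, and -2.19 and -2.23. Its part in the 907 calls was not tested. The calls were 341 without MGE replicate 2, 141 higher and 200 lower, and 857 without MGE replicate 1, 606 higher and 251 lower, so the split between directions turned with the MGE sample left out. They were 418 and 417 without LGE replicates 1 and 2, and 436 without CGE replicate 1. With only peaks within 1 kb of a start 107 genes passed, and 78 of the 907 were among them.

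Relative to the other nuclei of their samples, members were less open at Lhx6, Lhx8 and Gbx1, genes of later MGE cells, in the MGE than in LGE and CGE, and more open at Nkx2-1 in sums over the gene. For Nkx2-1 the other nuclei had 515 and 330 CPM in MGE, so that the log2 ratio of members to others was 0.19 and 0.32 there. In LGE and CGE the others had 34.1 to 41.0 CPM, slightly above the members in these sums. The difference between the eminences was 0.48 (SE 0.0674, adjusted p = 2.37e-05) and passed with each sample left out. Over the merged region of Nkx2-1 (chr12:56517497-56541787) it was 0.28 (SE 0.0911, adjusted p = 0.0583) and did not pass. There the members lay above the others in LGE replicate 2 (79.8 against 75.7 CPM) and CGE replicate 2 (73.4 against 71.0), and below them in LGE replicate 1 (64.3 against 70.6) and CGE replicate 1 (71.8 against 85.2). For Lhx6 the members were below the other nuclei by -1.47 and -1.16 in MGE, and the others had 44.6 to 60.9 CPM in LGE and CGE. The difference was -1.0 (SE 0.0773, adjusted p = 8.76e-10) and lay between -1.16 and -0.81 with a sample left out. Peaks covered 30.5 and 30.4 kb around Lhx6 in MGE and 5.94 to 13.8 kb in LGE and CGE. Gene sums over merged regions were not fitted for this difference, so Lhx6, Lhx8 and Gbx1 have no such value over shared stretches here. Lhx8, a LIM-homeodomain factor of cholinergic neurons, had 87.1 and 106 CPM in members and 134 and 155 in other nuclei of MGE, and 60.9 to 76.2 in members of LGE and CGE. Its log2 ratio was -0.59 and -0.53 in MGE and between -0.01 and 0.27 in the other samples, a difference of -0.75 (adjusted p = 2.78e-08). Gbx1, a homeobox gene, differed by -0.87 (adjusted p = 9.81e-06), with 43.6 and 20.2 CPM in members against 65.2 and 34.3. Sox6, a SOX factor of MGE-derived interneurons, differed by -0.20 (adjusted p = 0.0465) but passed in 0 of 6 fits with a sample left out. Shh differed by 0.35 (SE 0.0792, adjusted p = 0.00635), a call lost without MGE replicate 2, LGE replicate 1 or CGE replicate 1 (adjusted p up to 0.208).

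Of the 13 genes of the LGE list, 6 had a higher difference in MGE (2.75% of all genes) and 1, Pax6, a lower one (-0.25, adjusted p = 0.0457). Pax6 passed in 1 of 6 fits with a sample left out and ranged from -0.40 to -0.078. Zfp503, a zinc finger factor of striatal development, had 120 and 116 CPM in MGE members and 106 and 102 in the others, whereas in LGE it had 75.2 and 87 in members and 114 and 131 in the others. Members thus lay above the other nuclei in MGE and below them in LGE, and the difference was 0.51 (adjusted p = 1.94e-05). Gsx2, a homeobox gene of ventral progenitors, differed by 0.46 (adjusted p = 0.00511), with 158 and 157 CPM in MGE members against 97.3 and 73.8. Meis2, a homeobox gene of striatal projection neurons, had 357 and 386 CPM in MGE members against 285 and 276, and 590 and 668 against 564 and 642 in LGE, a difference of 0.33 (adjusted p = 0.000768). Ebf1, Foxp2 and Tshz1 differed by 0.31, 0.34 and 0.30. Of these 6, Ebf1, Foxp2 and Zfp503 passed with each sample left out. Meis2 was lost without MGE replicate 2 (adjusted p = 0.0688), Tshz1 without MGE replicate 2 or LGE replicate 2 (up to 0.0823), and Gsx2 without MGE replicate 2, LGE replicate 1 or CGE replicate 1 (up to 0.331).

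Among Notch genes 5 of 15 had a higher difference in MGE (2.75% of all genes) and 0 a lower one (2.48%). They were the receptor Notch2 (0.20), the ligands Dll1 (0.30), Dll3 (0.29) and Jag1 (0.31), and Mfng (0.40), a glycosyltransferase that modifies Notch. With a sample left out, Mfng passed in 5 of 6 fits, Dll1 in 3, Dll3 and Jag1 in 2 and Notch2 in 1, and each of the 5 was lost without MGE replicate 2. The adjusted p then reached 0.0929 for Mfng, 0.352 for Jag1, 0.268 for Dll1 and 0.203 for Dll3, and for Notch2 0.254 without LGE replicate 2. Dll1 had 267 and 275 CPM in MGE members against 235 and 208 in the other nuclei, while LGE members had 212 and 186 against 231 and 215. Dlx1 and Dlx2, neighbours that share peaks, differed by -0.28 and -0.27, and passed in 4 and 3 of 6 fits. The Hedgehog genes Gli3 (0.25) and Boc (0.35) were higher with Shh, passing in 2 and 5 of 6 fits with a sample left out, and Gli2 did not pass. Of the remaining list genes, Fabp7 (0.41), Btg2 (0.26), Gap43 (0.26) and Cdk1 (0.26) had a higher difference, but Cdk1 passed in 1 of 6 fits with a sample left out and the other 3 in 2. Fabp7 then ranged from 0.17 to 0.70 (adjusted p up to 0.629). None of the glial, FGF and Wnt or CGE genes passed, and Gap43 turned to -0.035 when only peaks within 1 kb of a transcription start were summed.

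**Figure D3:**
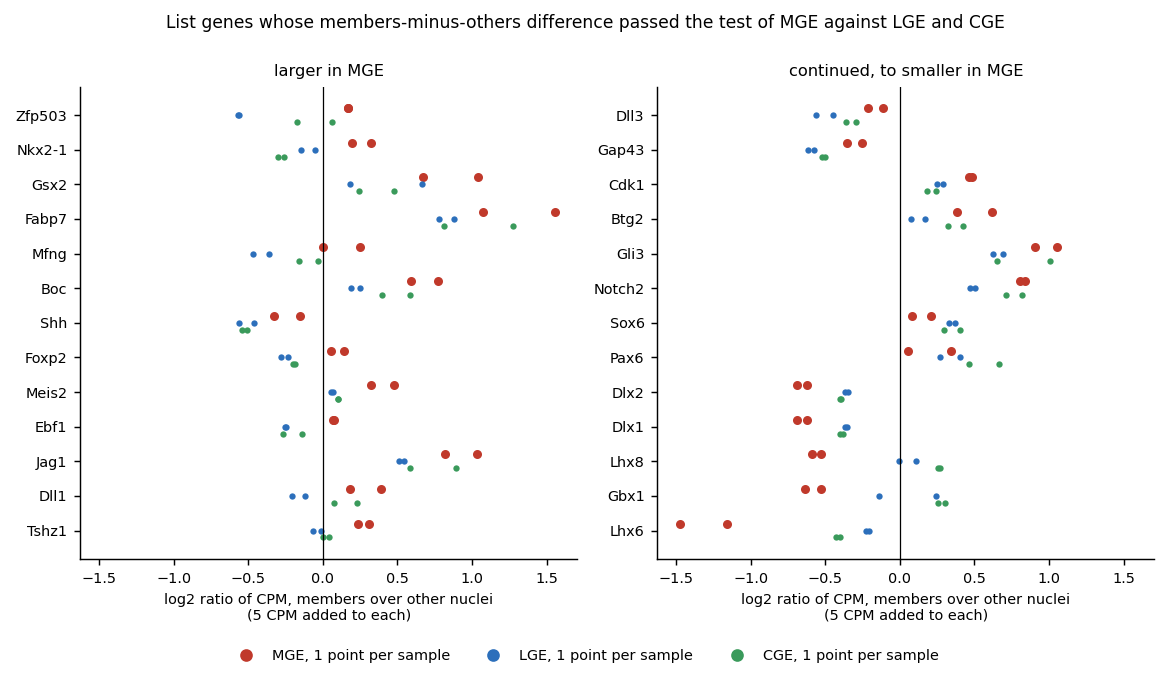
Log2 ratio of the level in members over that in the other nuclei of the same sample, with 5 CPM added to each (horizontal axis), 1 point per sample, for list genes that passed the test of MGE against LGE and CGE (vertical axis, ordered by that difference). The MGE points of Lhx6, at -1.47 and -1.16, lie left of all others of that gene, and those of Nkx2-1, at 0.19 and 0.32, lie right of the LGE and CGE points.

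Genes of other cell types passed too, at low levels. Col1a2, a collagen of mesenchymal cells, differed by 0.79 (adjusted p = 3.67e-05), Tek by 0.51, the pericyte receptor Pdgfrb by -0.36 and Emx1, a pallial homeobox gene, by -0.42. With a sample left out Col1a2 and Emx1 passed in 6 of 6 fits, Pdgfrb in 4 and Tek in 1. By the marker sums above, whose neural side held the genes of the ratio, non-neural nuclei made up 0.438% and 1.71% of members in MGE. In the other MGE nuclei they made up 0.704% and 0.690%. In LGE and CGE they made up 0.289% to 2.52% of members and 1.92% to 4.23% of other nuclei. There the share was lower in members of each sample. Without non-neural nuclei 887 of the 907 calls were also made. By fold, genes with few counts led, namely Abca8a (4.00), Ambn (3.77), Cyp4f15 (2.30), Adad1 (2.26), Toporsl (2.00) and 4930432M17Rik (2.33) on the high side, and Il18rap (-1.80), Mettl11b (-1.71), Foxr1 (-1.64), Iqub (-1.52), Tmem182 (-1.44) and Parvg (-1.43) on the low side. With a sample left out Foxr1 passed in 1 of 6 fits, Tmem182 and Parvg in 3, Cyp4f15 and Adad1 in 4 and Toporsl in 5. With only peaks within 1 kb of a start, Abca8a turned to -0.29, Adad1 to -0.64, Parvg to 0.84 and Col1a2 to -0.023.

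Single regions showed more differences than genes did. Peaks of the 6 samples were merged, and of 77122 merged regions that overlapped peaks of each of the 6 samples and had enough counts 7989 (10.4%) passed between MGE and LGE members and 7316 (9.49%) between MGE and CGE members. Of the calls against LGE 3876 were higher (5.03% of regions tested) and 4113 lower (5.33%) in MGE, so 48.5% of calls were higher, but 28.9% were higher with covered length as an offset, where the median of all regions was -0.17 in place of -0.014. Against CGE 3013 were higher (3.91%) and 4303 lower (5.58%), so 41.2% of calls were higher, but 57.1% were higher with the offset. The split between directions thus depends on this setting, and the counts in each direction are given with that limit. Among the 65.4% of regions covered by at least 50% in every sample, 4314 of 50498 (8.54%) passed against LGE, 2213 higher (4.38%) and 2101 lower (4.16%), and 4241 (8.4%) against CGE, 1989 higher (3.94%) and 2252 lower (4.46%). The calls against LGE were 4580 without LGE replicate 1 and 4992 without MGE replicate 1, and those against CGE 2891 and 3005 without CGE replicates 1 and 2 and 4438 without MGE replicate 1.

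The merged region over Nkx2-1 (chr12:56517497-56541787) had 560 and 398 CPM of counts in shared regions in MGE members, 64.3 and 79.8 in LGE and 71.8 and 73.4 in CGE. It differed by 2.75 from LGE (adjusted p = 0.000383) and 2.81 from CGE (adjusted p = 0.000489), and by 2.03 and 2.33 with covered length as an offset. Distal regions reached larger folds. The region near Zic4 (chr9:91456115-91457446), 78.1 kb from the start of that zinc finger gene, had 17.3 and 29.7 CPM in MGE members, 1.79 and 1.43 in LGE and 0.68 and 1.49 in CGE. Both MGE samples were over the other 4 without overlap, and the difference was 3.85 from LGE (SE 0.410, adjusted p = 0.000732) and 4.47 from CGE (SE 0.430, adjusted p = 0.000635). The other MGE nuclei had 22.3 and 33.6 CPM there, above the members of the same sample in both replicates.

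The region near Cps1 (chr1:67235048-67236671) had 14.3 and 25.0 CPM in MGE members and 1.19 to 2.23 in members of the other 4 samples. It differed by 3.38 and 3.91 from LGE and CGE (adjusted p = 0.000708 and 0.000613), and was higher still in the other MGE nuclei, at 34.5 and 53.8 CPM. The region near Galc (chr12:98123245-98124268) had 8.80 and 13.7 CPM against 0.627 to 1.70, with differences of 3.08 and 3.92, and 10.4 and 15.5 in the other MGE nuclei. The region near Eef2kmt (chr16:5512984-5513880) had 3.88 and 7.17 CPM against 0.238 to 0.862, with 3.94 and 2.89, and 4.94 and 8.5 in the other MGE nuclei. All 4 of these regions, that near Zic4 included, thus had a higher level in the other MGE nuclei than in the members. In the opposite direction, the region near Cd83 (chr13:43929889-43931338) had 2.41 and 1.97 CPM in MGE members, 34.7 and 37.2 in LGE and 15.9 and 10.3 in CGE, with differences of -4.01 (adjusted p = 0.000193) and -2.47 (adjusted p = 0.000956). An intron of Tenm4, which encodes a teneurin of axon guidance, held a region (chr7:96595237-96597836) with 5.00 and 6.84 CPM against 40.6 to 62.7. With any sample left out, the Zic4 region passed in both comparisons, the Eef2kmt, Cd83 and Tenm4 regions passed against LGE, and the Galc and Cps1 regions against CGE.

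**Figure D4:**
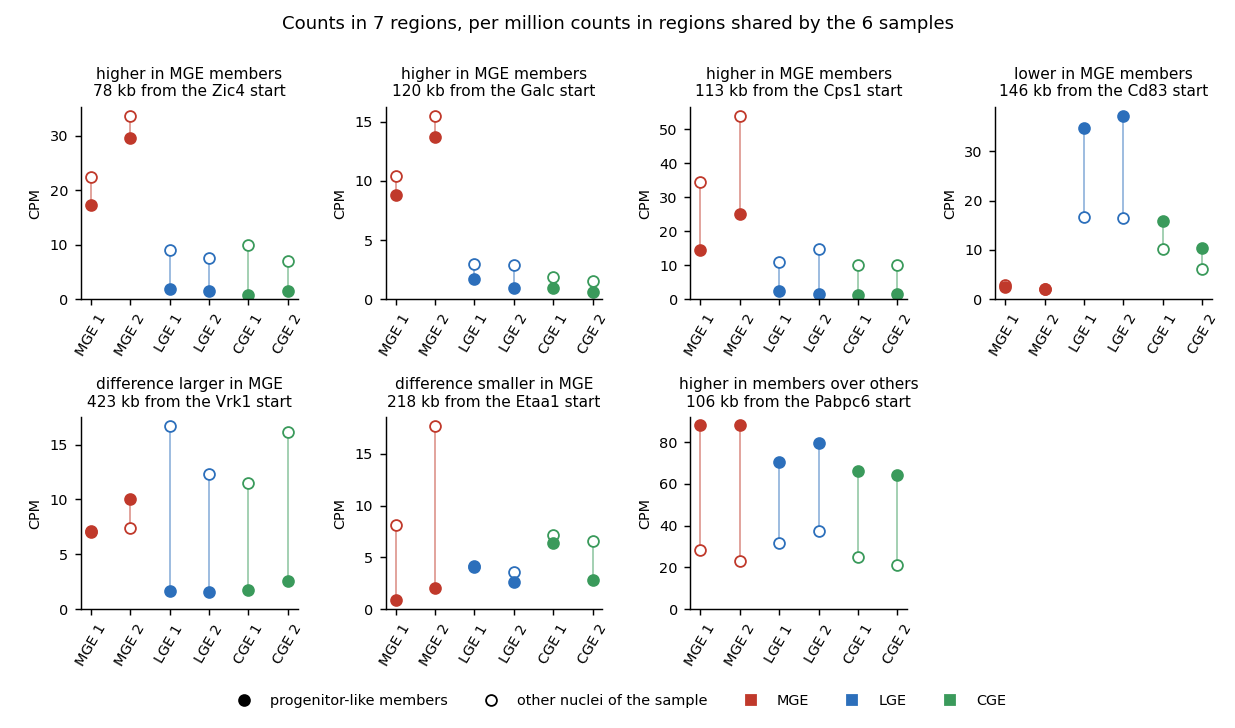
Level of 7 regions, named by the nearest gene start, in CPM of counts in shared regions (vertical axis, from 0) in the 6 samples (horizontal axis), with filled points for members and open points for other nuclei. Among the filled points, those of both MGE samples are highest at the regions near Zic4, Galc and Cps1, where the open points of MGE lie higher still, and lowest at the region near Cd83, where they have 2.41 and 1.97 CPM.

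Several regions with the largest folds between eminences were ones that a group's peaks hardly covered. The region chr5:124339151-124340739 had 4.90 and 6.87 CPM in MGE members and 0 in members of both LGE samples, but peaks of the LGE samples covered 0.126% and 0.0629% of it, against 95.9% and 96.0% in MGE. An intron of B3galt1 (chr2:68282840-68283920) had 14.0 and 24.7 CPM in MGE members and 0.298 and 0.314 in CGE members, with coverage of 17.7% and 35.3% in CGE. Its difference from CGE was 6.03, and 4.12 with covered length as an offset (adjusted p = 8.15e-06), so this call was kept. Regions near 0 in MGE members were covered no better there, as at chr11:94162989-94163832 with 1.78% and 0.355%. Levels at such hardly covered regions show where a sample had a peak and not how open an uncovered stretch was.

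The members-minus-others difference in MGE differed from that in LGE and CGE at 6166 of 77217 regions (7.99%), with 3138 higher (4.06%) and 3028 lower (3.92%). Among regions covered by at least 50% the higher share of calls was 57.6%, with 2040 higher (4.04%) and 1501 lower (2.97%) of 50509 tested, 7.01% in all. The count over all regions was 1673 without MGE replicate 2 and 3971 without MGE replicate 1. The region near Vrk1 (chr12:106453113-106454552), 423 kb from that start, had 7.04 and 10.1 CPM in MGE members and 7.10 and 7.36 in the other MGE nuclei, but 1.61 to 2.59 in members and 11.5 to 16.7 in other nuclei of LGE and CGE. Members and other nuclei thus had like levels in MGE, while members lay below the other nuclei in LGE and CGE, a difference of 3.11 (SE 0.210, adjusted p = 8.49e-11). An intron of Lrrc6 (chr15:66416237-66417080) had the same pattern at 3.02 and 2.85 CPM and differed by 3.95 (SE 0.355, adjusted p = 8.72e-09).

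The region near Etaa1 (chr11:18170904-18171946), 218 kb from that start, showed the reverse. It had 0.910 and 2.01 CPM in MGE members against 8.16 and 17.7 in the other MGE nuclei, whereas LGE and CGE had 2.64 to 6.42 in members and 3.58 to 7.17 in other nuclei. The difference was -2.74 (SE 0.273, adjusted p = 3.67e-08). The Zic4 region differed by 2.35 and the Cps1 region by 1.58. At both, members lay below the other nuclei in MGE. The positive values mean that members lay further below the other nuclei in LGE and CGE on average, and not that they were higher in MGE. Within the MGE alone, 399 of 36421 regions of at least 5 CPM (1.1%) had a log2 ratio of 1 or more in both samples and 792 (2.17%) of -1 or less, with 5 CPM added. These were 1388 and 1971 with 1 CPM added. With members ranked after thinning, but summed at full counts, they were 192 and 524. The highest by the smaller of the 2 ratios was a region over an annotated exon, 18.7 kb from the start of Fggy (chr4:95839528-95841740), at 45.4 and 56.6 CPM against 12.9 and 12.4. A region 106 kb from Pabpc6 (chr17:9774779-9777342) followed, at 88.5 and 88.3 CPM against 28.3 and 23.1. A region 11 kb from the start of Slc32a1 (chr2:158597803-158601767), a gene of the ratio, had 6.50 and 7.97 CPM against 48.7 and 45.9.

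The letters in the central 200 bases differed between the sets of regions. NKX2 cores (CAAGTG, both strands) were in 16.8% of regions higher in MGE than in LGE members and 18% of those higher than in CGE members, against 11.5% of all regions tested and 11% and 10.3% of those lower. TAATTA was in 7.5% and 5.9% of the higher and 15.8% and 16.8% of the lower regions, against 7.3% of all. NKX2 and TAATTA cores thus differed in opposite directions. SOX cores (ACAANG, both strands) did not separate the directions, with 44.1% and 45.2% of higher and 42.9% and 43.6% of lower regions against 36.7% of all. CAGCTG, an ASCL core, was in 21.4% and 19.4% of the higher and 11.5% and 13.9% of the lower regions, against 15.8% of all. Regions whose members-minus-others difference was lower in MGE held TAATTA in 21.1%, and those where it was higher held TGACAG, a MEIS core, in 25.9%, against 16.2% of all regions.

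Called regions lay away from transcription starts, with 2.1% to 4.3% within 1 kb of a start against 18% of all, and had a median GC content of 45.5% to 48.5% against 50%. Among regions away from starts NKX2 cores were in 16.9% and 18.1% of those higher in MGE against 12.4% of all, and TAATTA in 21.6% of regions lower in the difference between eminences against 8.6%. Within the MGE, regions at least 1 higher in members on the log2 scale held NKX2 cores in 16.0% and GGAATG, the TEAD core, in 15.3%, against 10.5% and 9.7% of all regions of at least 5 CPM. Those at least 1 lower held TAATTA in 21.1% against 5.5% and CAGCTG in 19.2% against 14.6%, while 9.3% of those at least 1 higher held CAGCTG. Called regions were also wider than all regions, with a median of 1392 to 1573 bp against 1265. Peaks covered them less. The share covered in the least covered sample had a median of 43.0% to 55.8% in called regions, against 61.6% in all. The part of width, coverage and base composition in these shares was not tested.

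**Figure D5:**
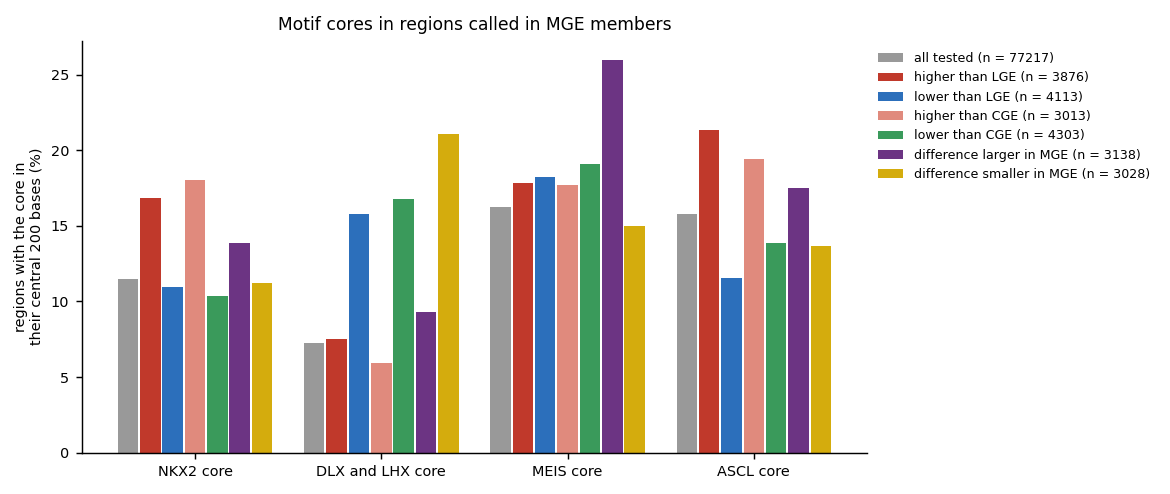
Share in percent (vertical axis, from 0) of regions whose central 200 bases hold each of 4 cores, named by the factors known to bind them, in 7 sets of regions (bars). The NKX2 core is in 16.8% and 18% of regions higher in MGE members than in LGE and CGE members, against 11.5% of all regions, and the core of DLX and LHX factors is most frequent in the sets that are lower in MGE.

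The deposited counts per motif, which sum over all peaks that hold a motif, differed little. Of 579 motifs 0 passed between MGE and LGE members and 0 between MGE and CGE members in edgeR's quasi-likelihood test (0% each), with 40 and 23 at an unadjusted p under 0.05 and 11 and 7 called by DESeq2. Median log2 differences from LGE and CGE were 0.01 and 0.04 over all motifs, 0.25 and 0.23 for the NKX2 family, 0.29 and 0.09 for NFI, 0.22 and 0.15 for NR2F and 0.22 and -0.0013 for HES and HEY. They were -0.12 and -0.09 for DLX and LHX, -0.16 and 0.10 for POU3F and -0.08 and 0.01 for MEIS and PBX. The 4 NKX2 motifs ranged from -0.05 to 0.50 from LGE. Between members and other nuclei of MGE replicates 1 and 2 the medians were 0.08 and 0.12 for TEAD motifs, 4 of 4 of which were higher in both as were 284 of all 579, 0.05 and 0.08 for NFI, 0.02 and 0.07 for SOX, and 0.01 and 0.07 for NKX2. RFX motifs had -0.03 and -0.08, with 5 of 5 lower in both as were 217 of all 579, and all motifs together 0.00 and 0.01. The largest single ratios were those of the Pax6 motif, 0.20 and 0.36, and of Pou5f1::Sox2, 0.16 and 0.23, and the lowest that of HOXD11, -0.19 in both. The difference between eminences passed for 6 motifs (1.04%), with Mlxip (0.020) and MEIS2 (0.046) higher (0.345% of motifs) and PAX4 (-0.055), Hoxd3 (-0.047), TCF7L1 (-0.070) and NFE2 (-0.204) lower (0.691%), each at an adjusted p of 0.0423, and 0 of the 6 passed when any sample was left out.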

How the data were processed

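Single-nucleus ATAC-seq libraries of 8 samples were made with a droplet kit. The submitters' processing notes name Cell Ranger ATAC 1.2.0 and GRCm38/mm10. The authors deposited, for each sample, its own peak list, raw counts per peak and nucleus, and raw counts for 579 motifs. Peaks were called per sample, and most counts are even numbers. The sources used here do not state how barcodes were filtered before deposit.

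Members and lists were chosen with earlier results of these data known, and the marker lists come in part from that earlier work. Counts were summed per sample over members and over the other nuclei. A gene was the body plus 2 kb upstream of 21951 protein-coding genes (GENCODE M21), and a peak over several genes counted for each. Regions were merged peaks with a peak in all 6 samples. Tests used edgeR 4.0.16 in R 4.3.3 (TMM, filterByExpr, glmQLFit, glmQLFTest) with Benjamini-Hochberg adjustment over all features and a threshold of 0.05. The 11 genes of the ratio and regions over them stayed in all fits and may be among the counts of calls. Members against others was a log2 ratio with 5 CPM added. Named genes were the 12 highest and 12 lowest of that ratio, the 6 largest folds in each direction per contrast without overlap of groups, and called list genes. For regions the 3 largest folds were named, and examples covered by at least 50% were added after values were seen. No doublet caller was run, and an alternative left out the 10% of nuclei with the most counts. Other alternatives were DESeq2 1.42.0, cuts at 20% and 40%, 10000 counts, ranking after thinning to 5000 counts, peaks within 1 kb of a start, merged regions, covered length, non-neural nuclei, and each sample left out. A gene and a region that met these rules are not reported here. The fit was also run on simulated data, and the outcome is not given here. Python 3.11.15, pandas 2.3.3 and matplotlib 3.10.9 were used.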

Additional observations from a re-analysis of the deposited data

Results flagged for a closer look

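A difference between members and other nuclei that was not the same in MGE as in LGE and CGE, by a test of that difference itself, was found at 907 genes, 6166 regions and 6 motifs. Values below are log2 and are members minus others in MGE, less the mean of the same in LGE and CGE. The sharpness of the cut differed between samples, as the A and B values above show, and its part was not tested.

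Among the genes of the MGE list the values were 0.48 for Nkx2-1 (0.28 over its merged region, which did not pass), 0.35 for Shh, -1.0 for Lhx6, -0.75 for Lhx8, -0.87 for Gbx1 and -0.20 for Sox6. Among those of the LGE list they were -0.25 for Pax6, 0.33 for Meis2, 0.31 for Ebf1, 0.34 for Foxp2, 0.51 for Zfp503, 0.46 for Gsx2 and 0.30 for Tshz1. Notch genes gave 0.20 for Notch2, 0.30 for Dll1, 0.29 for Dll3, 0.31 for Jag1 and 0.40 for Mfng. Genes of basal progenitors, neurons and dividing cells gave -0.28 for Dlx1, -0.27 for Dlx2, 0.26 for Btg2, 0.26 for Gap43 and 0.26 for Cdk1. The Hedgehog genes Gli3 and Boc gave 0.25 and 0.35. Genes of other cell types gave -0.42 for Emx1, 0.51 for Tek, -0.36 for Pdgfrb and 0.79 for Col1a2.

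Of the genes highest in members over other MGE nuclei, Slco1c1 gave 0.41, Mlc1 0.34, Pkd1l1 0.37, Fam198a 0.42, Trp63 0.74, Hsd17b3 0.41 and Fabp7 0.41. With a sample left out Trp63 passed in 6 of 6 fits, Pkd1l1 in 5, Slco1c1 and Fam198a (0.23 to 0.66) in 3, and Mlc1 (0.18 to 0.58), Hsd17b3 (0.23 to 0.62) and Fabp7 in 2. Trp63, a relative of p53, had 33.1 and 51.1 CPM in MGE members and 53.8 to 92.8 in those of the other 4 samples. Of the lowest genes, Asb18 gave -0.56, Myo3a -0.43, Galnt14 -0.53, Lrfn2 -0.38 and Cps1 -0.58, of which Cps1 passed in 1 of 6 fits and Asb18 in 5. Genes named from the comparisons of members between eminences gave 4.00 for Abca8a, 2.33 for 4930432M17Rik, -0.89 for Cdh17, -1.14 for Cntnap3, 1.83 for Npc1l1, 0.35 for Plppr3, -0.80 for Morn5 and -0.85 for Wnt2. Genes named for the size of this value were Ambn (3.77), Cyp4f15 (2.30), Adad1 (2.26), Toporsl (2.00), Il18rap (-1.80), Mettl11b (-1.71), Foxr1 (-1.64), Iqub (-1.52), Tmem182 (-1.44) and Parvg (-1.43). The motifs were Mlxip (0.020), PAX4 (-0.055), MEIS2 (0.046), NFE2 (-0.204), Hoxd3 (-0.047) and TCF7L1 (-0.070).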

How the results depend on the processing

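Fits counted were genes, regions and motifs, each for MGE members against LGE members, against CGE members, and for the difference between members and others in MGE against LGE and CGE (the difference between eminences). Where a count moved, the cause was not tested unless the setting itself removes samples, nuclei or peaks. DESeq2 called 666 genes against LGE (94 with edgeR) and 643 against CGE (41), 3819 regions (6166) and 54 motifs (6) in the difference between eminences, and 11 and 7 motifs against LGE and CGE. With a replicate block the genes were 27, 20 and 1528 and the motifs in the difference between eminences 2. Only 2 replicate numbers exist, and the replicate differences of genes correlated at 0.05 for MGE with LGE, -0.16 for MGE with CGE and 0.65 for LGE with CGE, those of regions at 0.14, 0.00094 and 0.63 and those of motifs at 0.35, 0.37 and 0.29. The labels do not say what a number marks, so the numbers were not taken as pairs, and 0 of the 6 motif calls, 27 of the 94 gene calls against LGE and 19 of the 41 against CGE were also made with the replicate block. Of the named genes, Abca8a, 4930432M17Rik, Cntnap3, Oxgr1, Ankk1, Pax6 and Gli2 were then not called against LGE, Fgr, Npc1l1 and Nckap1l against CGE, and Ccdc188, Gnat2, Wnt2 and Ptprc against either. With 40% of nuclei as members 51 genes passed against LGE and 2 motifs in the difference between eminences, and with 20% 81 genes passed against CGE and 1 motif. Peaks within 1 kb of a start gave 28, 16 and 107 genes. Merged regions gave 188 and 101 genes against LGE and CGE, and covered length as an offset 2 and 0 genes and 5058 and 4562 regions. Regions covered by at least 50% gave 4314, 4241 and 3541. In the difference between eminences, nuclei of at least 10000 counts gave 568 genes, leaving out the 10% of nuclei with the most counts gave 557 genes and 2 motifs, the ratio over merged regions gave 0 motifs, and leaving out non-neural nuclei gave 10. Between members and other MGE nuclei, 33 genes had a log2 ratio of 1 or beyond with 5 CPM added and 63 with 1 CPM added. With members ranked after thinning, but summed at full counts, 19 had.

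With each sample left out in turn, genes ranged from 15 to 254 against LGE (without MGE replicates 1 and 2), from 18 (without CGE replicate 1) to 242 (without MGE replicate 2) against CGE, and from 341 (without MGE replicate 2) to 987 in the difference between eminences. Regions ranged from 4580 to 8394, from 2891 to 8301 and from 1673 to 6033, and motifs from 0 to 0 in each.

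Directions turned for Lhx6 (-0.46 from LGE) and Morn5 (-1.56 from LGE, -0.95 from CGE) with covered length, and for 4930415O20Rik (0.081 from CGE) over merged regions. In the difference between eminences with peaks within 1 kb of a start they turned for Myo3a (0.032), Abca8a (-0.29), Wnt2 (0.042), Adad1 (-0.64), Parvg (0.84), Gap43 (-0.035) and Col1a2 (-0.023). Of 95 counts with no sample left out, 62 stayed within 1.5 times the value reported. These 62 include motif counts against LGE and CGE that were 0 in both settings.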
